A study of Mus musculus with 14 samples.

Results

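The genes described here are 36 mouse genes of cholesterol and fatty acid synthesis that are controlled by the sterol regulatory element-binding proteins (SREBPs). They were taken from the deposited table by gene symbol, as a list of named members, out of 25239 gene symbols in all. All 36 were found, and all 36 were among the 13311 genes with enough counts to be tested. They fall into 4 roles: 6 regulators, 8 genes of the mevalonate and isoprenoid steps, 11 squalene to cholesterol genes, and 11 genes of fatty acid synthesis. The squalene to cholesterol genes include Fdft1, which makes squalene.

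RNA was sequenced from 14 cultures of bone marrow-derived macrophages, which are macrophages grown from marrow precursors. KO cells came from Ezh2fl/fl;LysM-Cre+/- mice, in which Cre made from the lysozyme M locus of myeloid cells deletes floxed Ezh2, and WT cells came from littermate controls whose own floxed and Cre alleles are not given in the sources used here. There were 3 libraries of KO cells in medium conditioned by Hepa1-6, a mouse hepatoma line (CM), 3 of KO cells in control medium (DMEM), 4 of WT cells in CM and 4 of WT cells in control medium, each after 24 h. All cultures were grown beforehand in DMEM with fetal bovine serum, horse serum and medium conditioned by L929 cells, and no medium conditioned by another cell line was included. The ages of the mice and the serum content of the Hepa1-6 medium are not given in the sources used here. Nothing in the labels says that the libraries of a group stem from different mice, and the p-values therefore cover only the variation among these libraries, part of which may be technical.

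SREBPs are made as precursors in the endoplasmic reticulum membrane, where SCAP binds them. When membrane sterols are low, SCAP carries the precursor to the Golgi, where it is cut and its amino-terminal part goes to the nucleus. When sterols are high, the INSIG proteins hold SCAP back. SREBP-2, from Srebf2, acts mostly on cholesterol genes and SREBP-1, from Srebf1, mostly on fatty acid genes. Macrophages also take up cholesterol with the particles and cells they engulf.

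Depth, in units of 1000000 exon counts, was 40.2 to 61.5 in KO cells in CM, 41.8 to 54.4 in KO cells in control medium, 41.3 to 85.8 in WT cells in CM and 45.2 to 82.1 in WT cells in control medium. WT libraries 3 and 4 of both media stood apart from the other 10 and were the deepest, at 80.4 to 85.8 against 40.2 to 61.5. The labels name no batch, so genes that were called between genotypes are given below also against WT libraries 1 and 2 alone. The deleted part of Ezh2 was checked on 2 exons of 81 and 85 bp, whose count per base was 7.22 to 19.3% of that of the other exons in KO cells in CM and 2.07 to 31.7% in KO cells in control medium, against 94.0 to 143% in WT cells in CM and 103 to 170% in WT cells in control medium. All 8 macrophage markers were present. Lyz2, the gene of the Cre locus, was lower in KO cells in both media (log2 change -1.11 in CM and -1.10 in control medium). Of 10 hepatocyte or hepatoma markers, Alb, Ahsg, Fgb and Serpina1a had no counts in any library, and the list summed to 4.31 to 7.42 CPM (counts scaled to a common library size) over all libraries. Most of that sum was Afp and Apoa2, present in both media, with group means of 1.68 to 2.53 and 3.12 to 4.02 CPM. The log2 change of Afp in KO cells in control medium was 0.58 (edgeR adjusted p = 0.0445). Markers of fibroblasts, T and B cells and neutrophils summed to at most 1.02, 0.21 and 3.16 CPM. Summed levels of 6 proliferation genes moved with both the medium and the genotype, at 449 to 526 CPM in KO cells in CM, 133 to 152 CPM in KO cells in control medium, 297 to 361 CPM in WT cells in CM and 99.7 to 123 CPM in WT cells in control medium. Their part in the results below was not tested.

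The first question was what CM does to these genes in each genotype. Most of them were higher in CM in both. The summed level of the 36 genes was 2029, 2047 and 2033 CPM in KO cells in CM against 1030, 1043 and 1028 CPM in KO cells in control medium. In WT cells it was 1950, 1841, 1850 and 1859 CPM in CM against 1086, 1082, 988 and 1010 CPM in control medium. The CM and control libraries did not overlap in either genotype. In bulk samples a change in the share of cells and a change in RNA per cell cannot be told apart.

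In KO cells 29 of the 36 genes rose and 1 fell (edgeR quasi-likelihood test, adjusted p under 0.05), where 20.0% of all tested genes rose and 18.2% fell. In WT cells 31 rose and 2 fell, where 19.3% of all tested genes rose and 18.0% fell. The median log2 change of the 36 was 0.98 in KO cells and 0.80 in WT cells, against -0.012 and -0.006 over all tested genes. The change reached 2-fold or more upward in 18 genes in KO cells and in 16 in WT cells. The mevalonate genes had the highest median (1.64 in KO cells and 1.34 in WT cells), followed by the squalene to cholesterol genes (1.51 and 1.25), the regulators (0.92 and 0.72) and the fatty acid genes (0.71 and 0.69). Within WT libraries 1 and 2 alone, 30 genes rose and 2 fell, where 17.5% of all tested genes rose and 15.1% fell. With library totals alone the median of all tested genes was -0.119 in KO cells and -0.088 in WT cells, and in WT cells 14.7% of all tested genes were higher and 26.3% lower. In that fit 29 members were higher in KO cells, where 14.6% of all tested genes were higher and 27.2% lower, and 30 members were higher in WT cells.

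**Figure D1:**
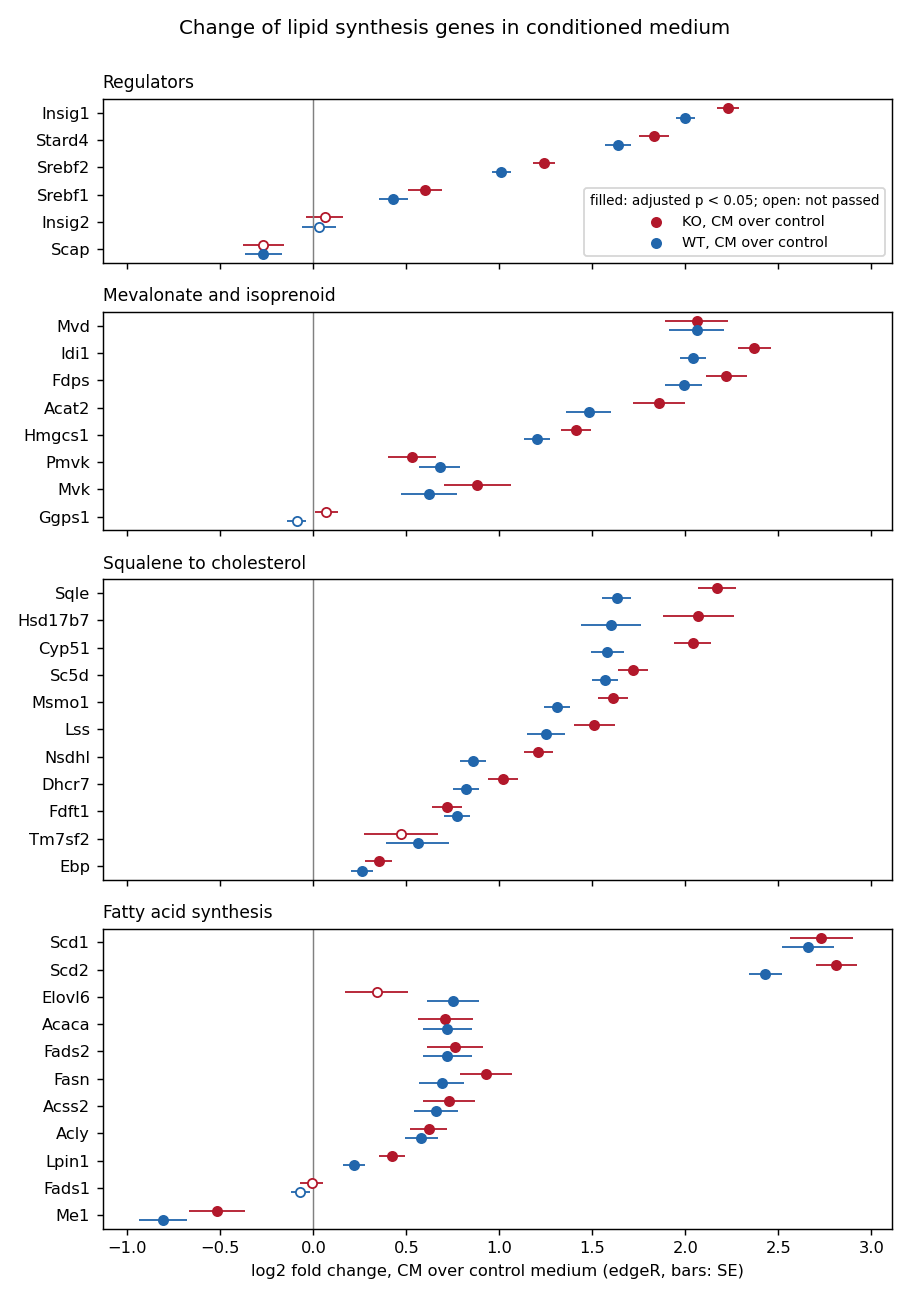
Log2 fold change of each of the 36 genes in CM over control medium (horizontal axis, edgeR estimate with its SE as bars), by role, for KO cells (red, upper point of each pair) and WT cells (blue, lower point). Filled points passed at an adjusted p below 0.05, and the values run from -0.81 for Me1 in WT cells to 2.81 for Scd2 in KO cells.

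Among the regulators, Insig1, which holds SCAP in the endoplasmic reticulum and is itself an SREBP target, had 109, 108 and 114 CPM in KO cells in CM against 25.6, 22.7 and 22.2 CPM in KO cells in control medium. In WT cells it had 105, 100, 103 and 101 CPM in CM against 26.2, 25.7, 25.3 and 25.0 CPM in control medium. Every CM library lay far above every control library, and the spread within groups was small beside that difference. The log2 change of Insig1 was 2.23 ± 0.06 (SE) in KO cells and 2.00 ± 0.05 in WT cells (edgeR adjusted p = 6.89e-13 and 3.72e-13).

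Stard4, a carrier of free sterol between membranes, was at 47.2, 46.1 and 42.0 CPM in KO cells in CM and 13.0, 12.7 and 12.3 CPM in KO cells in control medium. WT cells held 44.5, 39.2, 36 and 36.1 CPM of Stard4 in CM and 12.2, 12.7, 12.8 and 12.1 CPM in control medium. It rose by a log2 change of 1.83 ± 0.08 in KO cells and 1.64 ± 0.07 in WT cells (edgeR adjusted p = 1.8e-10 and 9.49e-11).

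Srebf2 was at 165, 168 and 170 CPM in KO cells in CM against 72.3, 71.7 and 68.6 CPM in KO cells in control medium. In WT cells Srebf2 was at 143, 139, 132 and 130 CPM in CM against 71.8, 71.5, 63.6 and 62.9 CPM in control medium. Its libraries separated by medium in both genotypes, and by genotype within CM. The log2 change in CM was 1.24 ± 0.06 in KO cells and 1.01 ± 0.05 in WT cells (edgeR adjusted p = 4.92e-10 and 6.89e-10), and all 19 of its exons with at least 100 counts had higher means in CM in both genotypes.

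Srebf1 moved less: 78.7, 80.0 and 85.5 CPM in KO cells in CM against 51.0, 58.5 and 51.8 CPM in KO cells in control medium. The WT values of Srebf1 were 72.8, 70.6, 64.6 and 60 CPM in CM against 54.2, 54.5, 45.4 and 44.5 CPM in control medium. All CM libraries lay above the control libraries of the same genotype, with a log2 change of 0.60 ± 0.09 in KO cells and 0.43 ± 0.08 in WT cells (edgeR adjusted p = 0.000117 and 0.000562).

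The remaining regulators did not follow. Scap, the escort of the SREBP precursors, had 56.5, 61.4 and 62.2 CPM in KO cells in CM against 75.0, 77.5 and 65.3 CPM in KO cells in control medium. In WT cells Scap had 53.9, 54.9, 45.7 and 41.9 CPM in CM against 63.8, 66.3, 52.5 and 53.3 CPM in control medium. The KO libraries of the 2 media did not overlap, while in WT cells the CM libraries 1 and 2 lay above the control libraries 3 and 4. The estimate was -0.27 in both genotypes (SE 0.11 in KO cells and 0.10 in WT cells), which passed in WT cells and not in KO cells (edgeR adjusted p = 0.0688 and 0.044). The WT call was lost in 9 of the 14 fits that left out 1 library, and the replicate block brought the KO value of Scap past the threshold (adjusted p = 0.00176), as did a term for the WT libraries that stand apart (0.000902). Same-numbered KO libraries did not deviate together (r = 0.07, -0.06 and 0.08), so the block has no pairing to draw on in KO cells. The KO value of Scap also passed when only the KO groups were fitted (edgeR adjusted p = 0.00605). It passed as well when only WT libraries 1 and 2 (0.00263) or only 3 and 4 (0.00301) were kept. Library totals alone (-0.38, 0.0164) and the omission of KO control library 3 (-0.34, 0.0442) had the same outcome. Insig2, the second retention protein, had 29.8, 28.4 and 27.6 CPM in KO cells in CM against 28.3, 27.6 and 26.7 CPM in KO cells in control medium. Its WT values were 29.8, 28, 25.6 and 23.4 CPM in CM against 26.2, 30.7, 23.6 and 23.9 CPM in control medium. The media overlapped in both genotypes, with estimates of 0.06 ± 0.10 in KO cells and 0.03 ± 0.09 in WT cells (edgeR adjusted p = 0.711 and 0.83), and the WT estimate changes sign when library totals alone scale the counts.

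Srebf1 can start from several first exons, which give proteins with different amino-terminal ends. RefSeq and GENCODE give 3 first exons of the gene on the minus strand of chromosome 11 (GRCm38). The upstream one runs from 60222523 to 60222581 (59 bp with 0 coding bases). The middle one runs from 60220453 to 60220627 (175 bp, 91 of them coding) and is the start that gives the longer amino-terminal end. The downstream one runs from 60210336 to 60210471 (136 bp, 19 coding) and is the start that gives the shorter one. The deposited table holds exon lengths and no coordinates, so the 3 exons were matched to it by gene symbol and length. The upstream exon held 16, 22 and 33 counts in KO cells in CM against 10, 13 and 5 in KO cells in control medium. In WT cells it held 19, 23, 35 and 49 counts in CM against 14, 11, 10 and 10 in control medium. Per kilobase of exon the upstream level was 8.03 ± 1.21 CPM (SD, n = 3) in KO cells in CM and 2.96 ± 0.98 CPM (n = 3) in KO cells in control medium. In WT cells it was 8.6 ± 1.05 CPM per kilobase in CM and 3.22 ± 1.5 CPM per kilobase in control medium (SD, n = 4 each). All CM libraries lay above all control libraries for this exon.

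The middle first exon differed less between media, at 10.3 ± 0.35 CPM per kilobase in KO cells in CM and 10.0 ± 1.29 CPM per kilobase in KO cells in control medium. WT cells had 9.36 ± 2.35 CPM per kilobase of it in CM and 7.55 ± 1.06 CPM per kilobase in control medium, with libraries of the 2 media overlapping in both genotypes. In WT libraries 1 and 2 the middle exon was at 10.5 and 12.1 CPM per kilobase in CM against 8.44 and 8.5 in control medium. In WT libraries 3 and 4 it was at 6.83 and 8.08 against 6.73 and 6.53. Within each of these pairs CM thus lay above control medium. The downstream exon had 0 to 11 counts in any library, too few to compare. These exons were described and not tested, and how fragments that span exons were counted is not given in the sources used here.

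**Figure D2:**
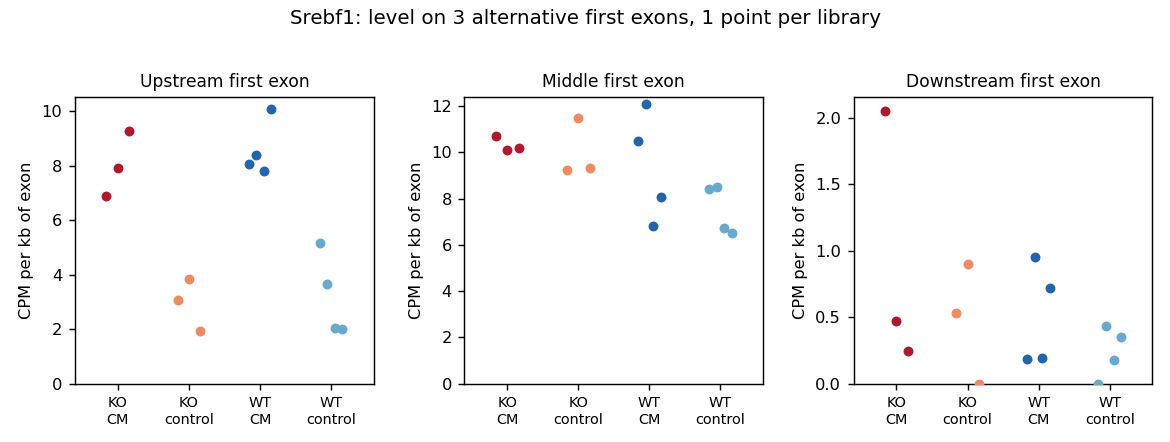
Level of the 3 alternative first exons of Srebf1 in CPM per kilobase of exon (vertical axis), 1 point per library, in KO cells in CM, KO cells in control medium, WT cells in CM and WT cells in control medium from left to right. The upstream exon lies at 6.88 to 10.1 in CM libraries and 1.92 to 5.15 in control libraries, while the middle exon overlaps between media.

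A few stretches before starts of these genes are shown. Hmgcs1 and Insig1 were taken because both rose in CM. The upstream and middle starts of Srebf1 were taken because the media differed more on the upstream first exon, a difference that was not tested. The sequences are from RefSeq (GRCm38.p6). Those of Hmgcs1, Insig1 and the upstream start of Srebf1 end before the first start annotated by RefSeq or GENCODE. That of the middle start of Srebf1 lies inside the gene and ends before the middle start. Capitals mark exact matches, on either strand, to 4 short motifs: TCACNCCAC, a form of the sterol regulatory element; CACGTG, the E-box; CCAAT, whose other strand reads ATTGG; and GGGCGG, the GC box bound by Sp1, whose other strand reads CCGCCC. They are chr13:119690101-119690350 (plus strand), chr5:28071162-28071362 (plus), chr11:60222582-60222831 (minus, upstream start) and chr11:60220628-60220877 (minus, middle start).
Hmgcs1: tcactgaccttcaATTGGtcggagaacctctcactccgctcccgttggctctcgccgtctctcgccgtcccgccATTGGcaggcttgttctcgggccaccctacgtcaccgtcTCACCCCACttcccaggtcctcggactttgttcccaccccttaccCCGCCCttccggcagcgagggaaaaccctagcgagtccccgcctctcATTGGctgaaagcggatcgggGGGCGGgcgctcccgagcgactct
Insig1: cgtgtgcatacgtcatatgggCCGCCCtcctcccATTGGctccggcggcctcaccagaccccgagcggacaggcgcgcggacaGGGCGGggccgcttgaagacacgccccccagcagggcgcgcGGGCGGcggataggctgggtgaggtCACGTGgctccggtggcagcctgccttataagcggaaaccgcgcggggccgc
Srebf1 upstream start: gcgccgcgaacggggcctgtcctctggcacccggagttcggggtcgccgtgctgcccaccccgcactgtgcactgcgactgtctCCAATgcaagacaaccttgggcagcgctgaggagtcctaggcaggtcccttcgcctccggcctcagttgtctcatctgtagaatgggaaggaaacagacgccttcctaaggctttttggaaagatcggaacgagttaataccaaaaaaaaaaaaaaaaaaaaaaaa
Srebf1 middle start: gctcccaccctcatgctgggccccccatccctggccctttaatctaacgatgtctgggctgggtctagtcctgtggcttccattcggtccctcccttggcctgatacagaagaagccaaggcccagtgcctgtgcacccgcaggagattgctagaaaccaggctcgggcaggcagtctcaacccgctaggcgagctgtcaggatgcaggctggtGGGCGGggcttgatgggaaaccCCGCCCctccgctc

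Of the 36 genes, 29 have windows in the RefSeq table, 38 windows in all. Stard4, Fdps, Fdft1, Sqle, Scd1, Scd2 and Fads1 have none and were not searched. In the 250 bases before the start, TCACNCCAC was in 1 of the 29 genes (Hmgcs1), against 1.22% of 27025 genes with windows. CACGTG was in 5 of the 29 (Dhcr7, Hsd17b7, Insig1, Sc5d and Scap), against 6.86% of all genes. CCAAT was in 22 of the 29, against 37.5%, and GGGCGG in 23 of the 29, against 35.4%. Among the 4 stretches shown, only that of Hmgcs1 holds TCACNCCAC and only that of Insig1 CACGTG. The upstream start of Srebf1 has 1 CCAAT and the middle start 2 GC boxes. Other forms of the sterol regulatory element were not searched for, so a window without TCACNCCAC may still hold one. A match describes letters in the window and shows no binding.

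The mevalonate steps begin with acetyl-CoA. Acat2, the thiolase that joins acetyl-CoA units, rose by a log2 change of 1.86 ± 0.14 in KO cells and 1.48 ± 0.12 in WT cells. Hmgcs1, the synthase that makes HMG-CoA, had 100, 99.2 and 99.6 CPM in KO cells in CM against 37.7, 36.6 and 38.4 CPM in KO cells in control medium. Its WT values were 92.6, 86.9, 103 and 108 CPM in CM against 42.3, 38.2, 43.0 and 46.1 CPM in control medium. The groups were far apart, and Hmgcs1 rose by 1.41 ± 0.08 in KO cells and 1.20 ± 0.07 in WT cells on the log2 scale (edgeR adjusted p = 2.25e-09 and 1.8e-09).

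Of the kinases and the decarboxylase that follow, Mvk rose by 0.88 ± 0.18 in KO cells and 0.62 ± 0.15 in WT cells, Pmvk by 0.53 ± 0.13 and 0.68 ± 0.11, and Mvd by 2.06 ± 0.17 and 2.06 ± 0.15. Idi1, the isomerase that supplies the starter unit of isoprenoids, stood at 43.2, 44.0 and 43.4 CPM in KO cells in CM against 9.48, 8.03 and 7.63 CPM in KO cells in control medium. WT cells had 37.4, 37.1, 36.6 and 35.7 CPM of Idi1 in CM against 8.99, 8.06, 9.65 and 8.86 CPM in control medium. Its log2 change was 2.37 ± 0.09 in KO cells and 2.04 ± 0.07 in WT cells (edgeR adjusted p = 1.41e-11 and 9.71e-12).

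Fdps, which makes farnesyl diphosphate, was at 85.2, 89.2 and 89.3 CPM in KO cells in CM against 17.7, 19.5 and 19.6 CPM in KO cells in control medium. In WT cells Fdps was at 76.9, 66.3, 58.4 and 60.1 CPM in CM against 19.2, 17.1, 15.3 and 14.5 CPM in control medium. It rose in both genotypes, by 2.22 ± 0.11 in KO cells and 1.99 ± 0.10 in WT cells. Ggps1, which extends farnesyl to geranylgeranyl diphosphate on the branch toward protein prenylation, had 28.9, 29.4 and 32.2 CPM in KO cells in CM against 28.7, 27.6 and 29.9 CPM in KO cells in control medium. The WT values of Ggps1 were 28.3, 29.8, 29.1 and 28.7 CPM in CM against 29.5, 30.8, 31.8 and 31.1 CPM in control medium. The media overlapped in both genotypes, with estimates of 0.07 ± 0.06 in KO cells and -0.09 ± 0.05 in WT cells (edgeR adjusted p = 0.398 and 0.216). With library totals alone the WT estimate was -0.17 and passed (adjusted p = 0.0203).

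All 11 squalene to cholesterol genes rose in WT cells and 10 of them in KO cells. Sqle, the squalene epoxidase, had 50.6, 48.3 and 41.8 CPM in KO cells in CM against 10.4, 10.8 and 10.1 CPM in KO cells in control medium. In WT cells Sqle had 44.5, 42.4, 53.8 and 52.4 CPM in CM against 15.9, 14.9, 16.3 and 15.4 CPM in control medium. The CM levels of the genotypes overlapped, whereas in control medium every KO library lay below every WT library. The log2 change in CM was 2.17 ± 0.10 in KO cells and 1.63 ± 0.08 in WT cells (edgeR adjusted p = 1.74e-10 and 4.65e-10).

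Cyp51, the lanosterol demethylase, had 59.2, 58.1 and 54.1 CPM in KO cells in CM against 15.2, 13.6 and 12.9 CPM in KO cells in control medium. The WT values of Cyp51 were 52.5, 46.9, 61.8 and 58.8 CPM in CM against 19.4, 17.1, 17.9 and 19.5 CPM in control medium. Msmo1, a methylsterol oxidase, had 91.6, 81.5 and 89.1 CPM in KO cells in CM against 28.3, 28.5 and 29.2 CPM in KO cells in control medium, and 83.6, 80.2, 94.2 and 92.1 CPM in WT cells in CM against 35.4, 31.5, 37.5 and 37.2 CPM in WT cells in control medium. Both showed the arrangement of Sqle, with genotypes overlapping in CM and apart in control medium. Cyp51 rose by 2.04 ± 0.10 in KO cells and 1.58 ± 0.09 in WT cells, and Msmo1 by 1.61 ± 0.08 and 1.31 ± 0.07.

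Dhcr7, which makes cholesterol in the last step of one branch, had 22.2, 24.7 and 24.9 CPM in KO cells in CM against 11.7, 11.1 and 12.7 CPM in KO cells in control medium. In WT cells Dhcr7 had 20.3, 20.2, 18.7 and 18.1 CPM in CM against 11.1, 11.6, 10.3 and 10.7 CPM in control medium. It rose by 1.02 ± 0.08 in KO cells and 0.82 ± 0.07 in WT cells. The other called members of this role ranged in KO cells from 0.35 for Ebp, the sterol isomerase, to 2.07 for Hsd17b7, a ketosterol reductase, with the cyclase Lss (1.51), Nsdhl (1.21) and the desaturase Sc5d (1.72) between. Their WT changes were 0.26, 1.60, 1.25, 0.86 and 1.57, and that of Ebp was 0.17 and did not pass within WT libraries 1 and 2 (edgeR adjusted p = 0.12).

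Tm7sf2, a sterol reductase, was the exception, at 5.71, 7.12 and 8.10 CPM in KO cells in CM against 4.57, 6.28 and 4.23 CPM in KO cells in control medium. Its WT values were 8.07, 7.26, 4.92 and 7.08 CPM in CM against 5.10, 5.2, 3.86 and 4.36 CPM in control medium. Libraries of the 2 media overlapped in both genotypes, with estimates of 0.47 ± 0.20 in KO cells and 0.56 ± 0.17 in WT cells (edgeR adjusted p = 0.0708 and 0.0165). The KO value passed in 9 alternatives, among them the replicate block (adjusted p = 0.0109), and the WT call was lost without WT CM library 1 (0.055) or WT control library 3 (0.0525). As for Scap, that block has no pairing to draw on in KO cells. Tm7sf2 shares 532 bases of exon with Vps51 on the same strand, so its counts cannot be fully told apart from those of Vps51.

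Fdft1, the squalene synthase, rose by 0.72 ± 0.08 in KO cells and 0.77 ± 0.07 in WT cells as counted (edgeR adjusted p = 2.66e-06 and 2.32e-07). One exon held 89.1% of its counts. That exon, 1818 bp in the table and within 1 bp of the annotated one at chromosome 14, 63145150 to 63146968 on the minus strand, shares 774 bases with Ctsb, a lysosomal protease gene on the plus strand that averaged 17476 CPM. Ctsb itself rose, by 0.58 ± 0.06 in KO cells and 0.55 ± 0.06 in WT cells. The library kit keeps strand, and the strand setting of the counting is not given in the sources used here, so reads of the 2 genes may not be separated there. The other Fdft1 exons summed to 27.6 ± 2.32 CPM in KO cells in CM and 7.29 ± 0.41 CPM in KO cells in control medium (SD, n = 3 each), and to 23.2 ± 3.10 CPM in WT cells in CM and 8.23 ± 0.81 CPM in WT cells in control medium (SD, n = 4 each). Counted on those exons alone, Fdft1 rose by 1.92 ± 0.12 in KO cells and 1.5 ± 0.10 in WT cells (edgeR adjusted p = 5.38e-09 and 1.22e-08), over 1.5 times the fold of the full count. The difference between KO and WT cells in CM was -0.23 ± 0.07 on the full count and 0.25 ± 0.11 on those exons, and neither passed (edgeR adjusted p = 0.0886 and 0.181). Shorter stretches shared with a protein-coding gene on the other strand are 109 bases of Srebf1 with Rai1, 257 of Ggps1 with Arid4b, 166 of Cyp51 with Akap9, and 395 and 197 of Acss2 with Gss and Ggt7. The longest shared with other-strand genes not annotated as protein-coding are 985 of Scap with 5830462I19Rik, 557 of Hmgcs1 with Gm48342 and 381 of Lss with 4930483K19Rik. Fdps shares 1124 bases of exon with Gm43738, a protein-coding gene on the same strand, so their reads cannot be fully told apart.

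**Figure D3:**
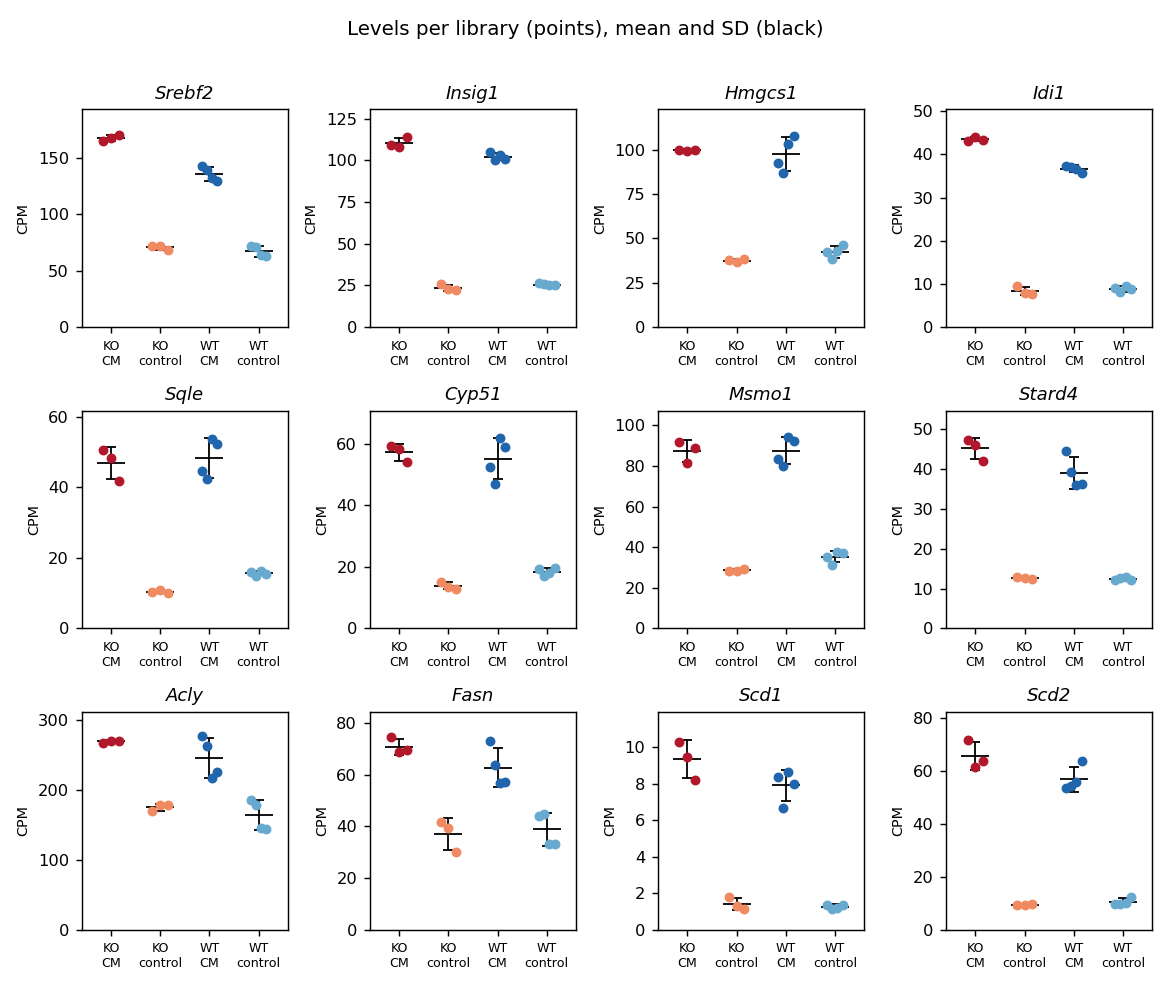
Levels of 12 genes in CPM (vertical axes from 0) in each library, with the mean and SD of each group in black, for KO cells in CM, KO cells in control medium, WT cells in CM and WT cells in control medium from left to right. CM libraries lie above control libraries of the same genotype in every panel, and Sqle, Cyp51 and Msmo1 lie lower in KO than in WT cells in control medium only.

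In fatty acid synthesis 8 of 11 genes rose and 1 fell in KO cells, and 9 rose and 1 fell in WT cells. Acly, which makes cytosolic acetyl-CoA from citrate, had 268, 270 and 271 CPM in KO cells in CM against 170, 179 and 178 CPM in KO cells in control medium. In WT cells Acly had 277, 263, 217 and 226 CPM in CM against 186, 179, 146 and 145 CPM in control medium, with libraries 3 and 4 lower than 1 and 2 in both media. It rose by 0.62 ± 0.10 in KO cells and 0.58 ± 0.09 in WT cells (edgeR adjusted p = 0.0002 and 8.66e-05). Per kilobase of exon Acly was the highest of the 36 in each of the 4 groups, at 60.9 ± 0.41 CPM per kilobase in KO cells in CM, where the spread of Fdps (60.2 ± 1.60) reached the mean of Acly.

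Acss2, which makes acetyl-CoA from acetate, had 16.2, 16.9 and 22.0 CPM in KO cells in CM against 10.9, 11 and 11.4 CPM in KO cells in control medium. WT cells had 16.7, 14.2, 17.8 and 15.7 CPM of Acss2 in CM against 10.7, 12.0, 8.01 and 10.2 CPM in control medium. The media did not overlap in either genotype, and Acss2 rose by 0.73 ± 0.14 in KO cells and 0.66 ± 0.12 in WT cells. Acaca, the carboxylase that makes malonyl-CoA, rose by 0.71 ± 0.15 and 0.72 ± 0.13.

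Fasn, the fatty acid synthase, had 74.5, 68.7 and 69.6 CPM in KO cells in CM against 41.7, 39.6 and 30.1 CPM in KO cells in control medium. In WT cells Fasn had 73.0, 63.7, 56.9 and 57.2 CPM in CM against 44.2, 44.8, 33.3 and 33.2 CPM in control medium. It rose by 0.93 ± 0.14 in KO cells and 0.69 ± 0.12 in WT cells, and all 43 of its exons with at least 100 counts had higher means in CM in both genotypes.

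The stearoyl-CoA desaturases, which put the first double bond into saturated fatty acids, showed the steepest increases of the 36. Scd2 had 71.8, 61.5 and 63.8 CPM in KO cells in CM against 9.17, 9.29 and 9.71 CPM in KO cells in control medium. In WT cells Scd2 had 53.5, 54.2, 55.8 and 63.9 CPM in CM against 9.75, 9.65, 10.3 and 12.5 CPM in control medium. Scd1 was lower in level, at 10.3, 9.46 and 8.22 CPM in KO cells in CM against 1.78, 1.28 and 1.13 CPM in KO cells in control medium, and 8.35, 6.68, 8.62 and 7.97 CPM in WT cells in CM against 1.35, 1.12, 1.17 and 1.38 CPM in WT cells in control medium. For both genes every CM library lay far above every control library of its genotype. Scd2 rose by 2.81 ± 0.11 in KO cells and 2.43 ± 0.09 in WT cells, and Scd1 by 2.73 ± 0.17 and 2.66 ± 0.14 (edgeR adjusted p between 1.4e-11 and 4.42e-09). The 2 genes are close paralogs, and how the counting treated reads that match both is not given in the sources used here.

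The desaturases of polyunsaturated fatty acids parted. Fads2, the delta-6 desaturase, had 10.6, 10.5 and 9.15 CPM in KO cells in CM against 5.57, 6.24 and 6.04 CPM in KO cells in control medium. The WT values of Fads2 were 8.47, 9.42, 8.34 and 7.81 CPM in CM against 6.04, 6.10, 3.90 and 4.76 CPM in control medium. It rose by 0.76 ± 0.15 in KO cells and 0.72 ± 0.13 in WT cells. Fads1, the delta-5 desaturase beside it on chromosome 19, had 77.9, 88.2 and 83.1 CPM in KO cells in CM against 86.3, 80.6 and 84.1 CPM in KO cells in control medium, and 89.5, 83.0, 85.3 and 85.2 CPM in WT cells in CM against 93.1, 91.1, 85.8 and 89.0 CPM in WT cells in control medium. The media overlapped for Fads1 in both genotypes, with estimates of -0.01 ± 0.06 in KO cells and -0.07 ± 0.05 in WT cells (edgeR adjusted p = 0.912 and 0.334). With library totals alone the WT estimate of Fads1 was -0.15 and passed (adjusted p = 0.029).

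Elovl6, which lengthens palmitate, was the weakest member per kilobase in both groups in CM, with 2.59, 3.13 and 2.79 CPM in KO cells in CM against 1.84, 2.65 and 2.22 CPM in KO cells in control medium. Its WT values were 3.99, 3.17, 3.26 and 4.40 CPM in CM against 2.17, 2.15, 2.19 and 2.29 CPM in control medium. It rose in WT cells (0.75 ± 0.14, edgeR adjusted p = 0.000495), while the KO estimate of 0.34 ± 0.17 did not pass (0.119) except without KO control library 2 (0.49, 0.0498). The interaction, which is the difference of the CM response between genotypes, was -0.41 ± 0.22 and did not pass either (edgeR adjusted p = 0.69). In CM every KO library of Elovl6 lay below every WT library, and the difference of -0.39 ± 0.15 did not pass (edgeR adjusted p = 0.149).

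Lpin1, a phosphatidate phosphatase of triglyceride synthesis, had 54.1, 54.3 and 55.1 CPM in KO cells in CM against 37.5, 41.0 and 43.8 CPM in KO cells in control medium. In WT cells Lpin1 had 52.1, 48.6, 48.3 and 52.9 CPM in CM against 40.4, 42.0, 45.0 and 46.4 CPM in control medium. It rose by 0.42 ± 0.07 in KO cells and 0.22 ± 0.06 in WT cells (edgeR adjusted p = 0.000212 and 0.0112). The WT call was lost within WT libraries 3 and 4 (adjusted p = 0.121) and with library totals alone (0.098).

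Me1, the cytosolic malic enzyme that supplies NADPH, moved against the others. It had 8.88, 8.61 and 10.0 CPM in KO cells in CM against 13.3, 12.9 and 13.2 CPM in KO cells in control medium. In WT cells Me1 had 4.09, 3.26, 4.68 and 5.64 CPM in CM against 6.67, 8.75, 7.91 and 7.84 CPM in control medium. No 2 of the 4 groups overlapped except KO cells in CM and WT cells in control medium. Me1 fell by 0.52 ± 0.15 in KO cells and by 0.81 ± 0.13 in WT cells on the log2 scale (edgeR adjusted p = 0.013 and 0.000181). The KO call was lost without KO CM library 2 (adjusted p = 0.054) and on the most-counted exon (0.306), and its exons with at least 100 counts had higher means in CM in 1 of 14 cases in KO cells and 0 of 14 in WT cells.

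**Figure D4:**
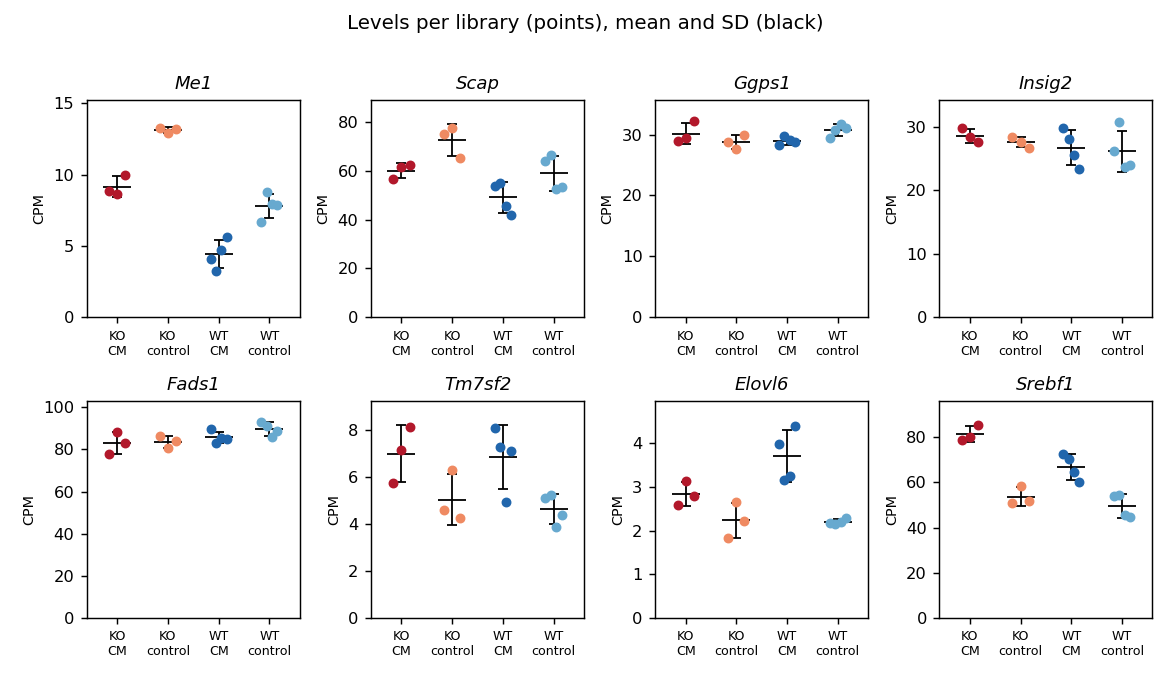
Levels in CPM (vertical axes from 0) of 7 genes that fell or did not pass in at least 1 CM comparison and of Srebf1, 1 point per library with the mean and SD in black, for KO cells in CM, KO cells in control medium, WT cells in CM and WT cells in control medium from left to right. Me1 is lower in CM in both genotypes and higher in KO than in WT cells in both media, at 8.61 to 10.0 CPM in KO cells in CM and 3.26 to 5.64 CPM in WT cells in CM.

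The second question was how KO cells differ from WT cells in each medium. Few of the 36 did. In CM, 4 were higher in KO cells and 0 lower, where 3.1% of all tested genes were higher and 1.49% lower by edgeR's test. In control medium, 1 was higher and 3 were lower, where 2.82% of all tested genes were higher and 2.5% lower. Unadjusted edgeR p-values were under 0.05 for 14 of the 36 in CM (23.4% of all tested genes) and for 9 in control medium (25.6%). DESeq2 called 6 higher and 1 (Fdft1) lower in CM, where it called 5.45% and 3.7% of all tested genes, and 1 higher and 3 lower in control medium, where it called 5.32% and 5.96%.

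Me1 differed in both media. Its log2 difference was 1.04 ± 0.14 in CM and 0.75 ± 0.14 in control medium (edgeR adjusted p = 0.00106 and 0.00719), higher in KO cells on all 14 of its exons with at least 100 counts in both media. Against WT libraries 1 and 2 alone it was 1.33 ± 0.15 in CM and 0.77 ± 0.13 in control medium (adjusted p = 0.000126 and 0.00358). Both calls stayed in all 14 fits that left out 1 library. On the most-counted exon alone the control medium value was 0.42 and did not pass (adjusted p = 0.167).

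In CM, Srebf2 was higher in KO cells by 0.30 ± 0.06 (edgeR adjusted p = 0.00879), and KO and WT libraries did not overlap. All 19 of its exons with at least 100 counts had a higher mean in KO cells, and the difference was 0.26 ± 0.05 against WT libraries 1 and 2 alone (adjusted p = 0.00954). In control medium Srebf2 did not pass (0.07 ± 0.06, adjusted p = 0.452). Fdps was higher in KO cells in CM by 0.43 ± 0.10 (edgeR adjusted p = 0.0223) and by 0.31 ± 0.08 against WT libraries 1 and 2 alone (0.0345). Dhcr7 was higher by 0.31 ± 0.07 (edgeR adjusted p = 0.0283), and by 0.25 ± 0.09 against WT libraries 1 and 2 alone, which did not pass (0.153). The Fdps call did not survive the omission of any KO CM library or of WT CM library 3 or 4 (adjusted p up to 0.0984), and the Dhcr7 call that of KO CM library 2 or 3 or of WT CM library 3 or 4 (up to 0.131). In control medium the estimates were 0.20 ± 0.10 for Fdps and 0.11 ± 0.08 for Dhcr7 (edgeR adjusted p = 0.232 and 0.367).

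The 3 genes lower in KO cells in control medium were all of the squalene to cholesterol steps. Sqle was lower by a log2 difference of -0.59 ± 0.09 (edgeR adjusted p = 0.00261), on all 11 of its exons with at least 100 counts, and by -0.56 ± 0.09 against WT libraries 1 and 2 alone (0.0018). Cyp51 was lower by -0.41 ± 0.09 (edgeR adjusted p = 0.0229), and by -0.38 ± 0.09 against WT libraries 1 and 2 alone (0.0252). Msmo1 was lower by -0.31 ± 0.07 (edgeR adjusted p = 0.0304), and by -0.22 ± 0.07 against WT libraries 1 and 2 alone, which did not pass (0.106). The Sqle call stayed in all 14 fits that left out 1 library, whereas Cyp51 was lost without KO control library 2 or 3 or WT control library 4 (adjusted p up to 0.106) and Msmo1 without KO control library 1, 2 or 3 or WT control library 3 or 4 (up to 0.116). In CM the estimates were -0.04 ± 0.09 for Sqle, 0.05 ± 0.09 for Cyp51 and -0.00 ± 0.07 for Msmo1 (edgeR adjusted p = 0.787, 0.746 and 0.989). Over all 11 genes of these steps, 3 estimates were above 0 in control medium and 7 in CM, and the medians were -0.17 and 0.04. With WT libraries 1 and 2 as the only WT libraries, 1 was above 0 in control medium and 9 in CM, with medians of -0.13 and 0.11.

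**Figure D5:**
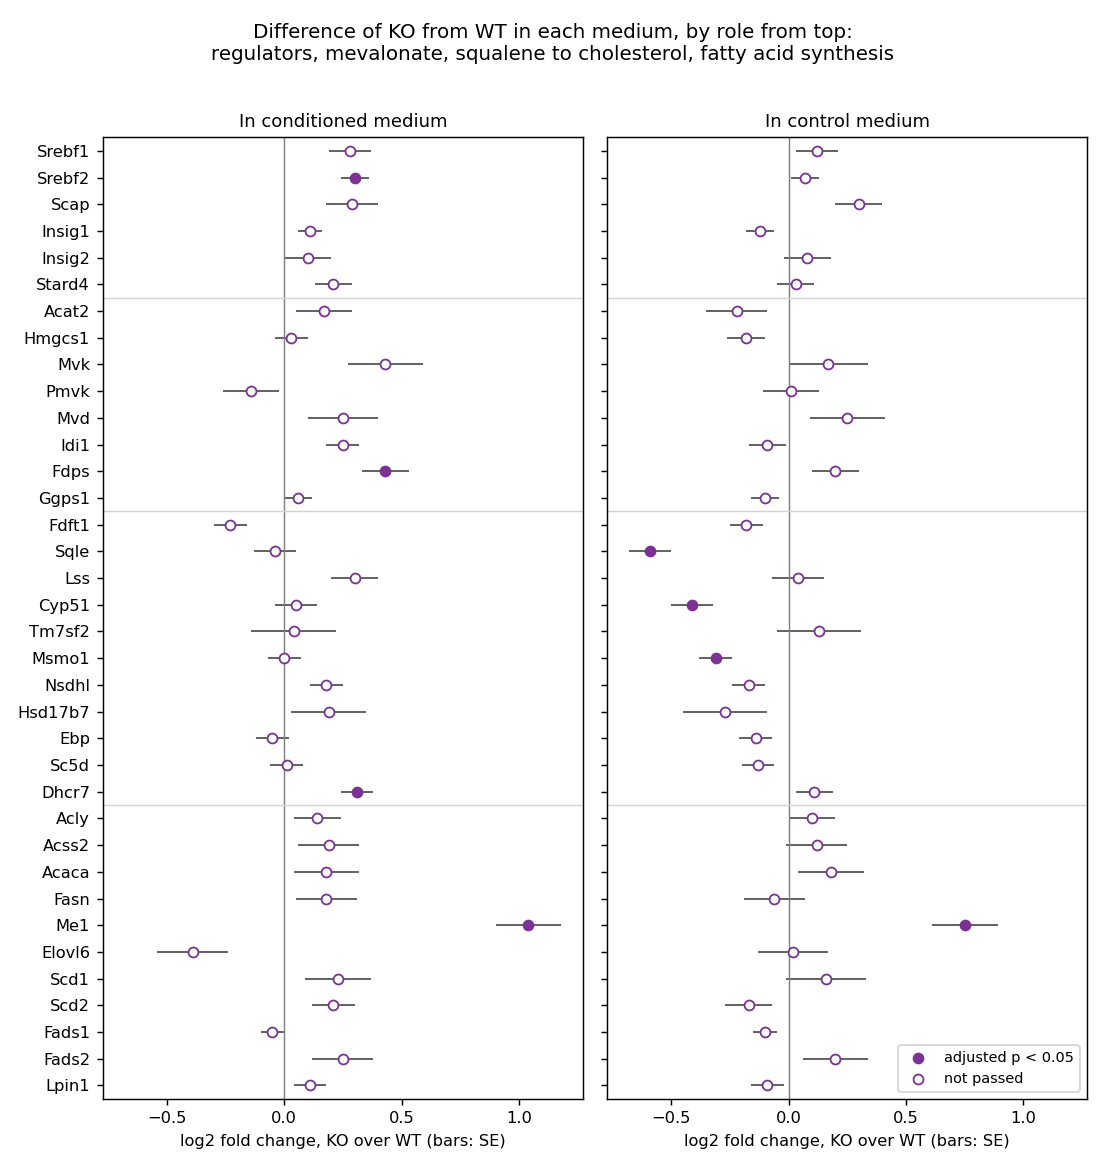
Log2 difference of KO from WT cells for each of the 36 genes (horizontal axis, edgeR estimate with its SE as bars) in CM (left) and in control medium (right), grouped by role and divided by grey lines. Filled points passed at an adjusted p below 0.05: Srebf2, Fdps, Dhcr7 and Me1 in CM, and Sqle, Cyp51, Msmo1 and Me1 in control medium.

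In CM 29 of the 36 estimates were above 0, against 50.2% of all tested genes, with a median of 0.18 against 0.001. In control medium 19 of the 36 were above 0, against 50.2% of all tested genes, with a median of 0.02 against 0.001. Against WT libraries 1 and 2 alone, 30 were above 0 in CM with a median of 0.14, and 8 in control medium with a median of -0.05. With a term for the WT libraries that stand apart, 27 were above 0 in CM with a median of 0.11, and 12 in control medium with a median of -0.04. The side of 0 on which most control medium estimates lie thus depends on WT libraries 3 and 4. The summed proliferation genes, given above, were also higher in KO cells in both media, and their part in these differences was not tested. Against WT libraries 1 and 2 alone the calls were 4 higher in CM (Scd2 in place of Dhcr7, 0.29, adjusted p = 0.0363), and 1 higher and 2 lower in control medium. In those fits 2.62% of all tested genes were higher and 0.967% lower in CM, and 2.2% higher and 1.65% lower in control medium. Against WT libraries 3 and 4 alone there were 16 higher and 1 lower in CM and 11 higher and 8 lower in control medium, where 17.8 and 17.7%, and 19.5 and 19.5%, of all tested genes were called. In that comparison the genotype and whatever sets those libraries apart cannot be told apart.

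The third question was whether the response to CM differs between KO and WT cells, tested as the interaction. EdgeR called 0 of the 36 and 0 of all 13311 genes (0.0%). At an unadjusted p below 0.05 there were 10 of the 36, against 7.89% of all tested genes, and 30 of the 36 estimates were above 0, against 51.3%. The median was 0.19 on the log2 scale, against 0.005 over all tested genes. Estimates above 0 mean a steeper rise in CM in KO cells, or a smaller fall. The highest were in Sqle (0.54 ± 0.13, edgeR adjusted p = 0.249), Cyp51 (0.46 ± 0.13, 0.348) and Hsd17b7 (0.46 ± 0.24, 0.69), and the lowest in Elovl6.

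Same-numbered WT libraries of the 2 media deviated together, but so did differently numbered ones within libraries 1 and 2 and within 3 and 4, so that pairing by number and that split cannot be told apart. KO libraries were not paired by number. With the replicate number within genotype as a block, 4 members passed, all upward: Sqle (0.54 ± 0.10, edgeR adjusted p = 0.0136), Cyp51 (0.47 ± 0.09, 0.0265), Msmo1 (0.30 ± 0.07, 0.0398) and Scd2 (0.37 ± 0.09, 0.0461), where 0.744% of all tested genes passed upward and 0.796% downward. With the WT libraries that stand apart as a term, Sqle, Cyp51, Msmo1 and Srebf2 passed (edgeR adjusted p = 0.0162, 0.0409, 0.0451 and 0.0439), where 0.654% of all tested genes passed upward and 0.578% downward. DESeq2 called Sqle (0.55 ± 0.14, adjusted p = 0.0251), where it called 0.451% of all tested genes upward and 0.18% downward. Within WT libraries 1 and 2, 0 passed, with Sqle at 0.68 ± 0.12 (edgeR adjusted p = 0.0506) and 32 of 36 estimates above 0, where 0.0674% of all tested genes passed upward and 0.015% downward. The calls thus depended on the fit. The estimates of Sqle, Cyp51, Msmo1, Scd2 and Srebf2 were above 0 in each of these fits. These genes were named because they passed in at least 1 of the fits, and the fits share libraries. Their shared sign is therefore no separate evidence. The control medium values of Sqle, Cyp51 and Msmo1 enter both the interaction and the difference between genotypes in control medium, so the 2 results share libraries.

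Of 15 genes of SREBP processing and sterol handling, 2 rose and 4 fell in CM in KO cells, where 20.0% of all tested genes rose and 18.2% fell. In WT cells 3 rose and 5 fell, where 19.3% rose and 18.0% fell. The medians of the list were -0.07 in KO cells and -0.09 in WT cells, against -0.012 and -0.006 over all tested genes. The 2 and 3 that rose lie near the share over all tested genes, and the 4 and 5 that fell lie somewhat above it. The largest change was in Mylip, the ubiquitin ligase that degrades lipoprotein receptors and a target of the sterol-sensing LXR receptors, at 17.3 ± 0.54 CPM in KO cells in CM against 72.1 ± 1.13 CPM in KO cells in control medium (SD, n = 3 each). In WT cells Mylip was at 20.1 ± 0.30 CPM in CM against 69.6 ± 5.2 CPM in control medium (SD, n = 4 each). It fell by 2.06 ± 0.07 in KO cells and by 1.79 ± 0.06 in WT cells on the log2 scale (edgeR adjusted p = 4.32e-12 and 2.52e-12). Nr1h3, which encodes LXR alpha, fell by 1.11 ± 0.13 and by 0.82 ± 0.11, while Cyb5b, an outer mitochondrial cytochrome b5, rose by 0.88 ± 0.06 and 0.64 ± 0.05, and Tmem97, a sterol-linked membrane protein, by 0.80 ± 0.10 and 0.70 ± 0.08. Between genotypes, Cyb5b was lower in KO cells in control medium (-0.21 ± 0.05, edgeR adjusted p = 0.0391), the 1 call of this list, where 2.82% of all tested genes were higher and 2.5% lower. It did not pass against WT libraries 1 and 2 alone (-0.19 ± 0.06, edgeR adjusted p = 0.115).

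Of 12 genes of the isoprenoid branches, which make ubiquinone, dolichol and prenylated proteins, 2 rose and 1 fell in CM in KO cells and 4 rose and 0 fell in WT cells, with medians of 0.05 and 0.08. The increases in KO cells are near the 20.0% of all tested genes that rose there, and in WT cells 19.3% rose and 18.0% fell. Dhdds, of dolichol synthesis, rose by 0.24 ± 0.08 in KO cells and 0.24 ± 0.07 in WT cells. Rabggta, a subunit of the geranylgeranyl transferase of Rab proteins, was the 1 gene of this list that differed between genotypes, higher in KO cells in CM (0.40 ± 0.11, edgeR adjusted p = 0.0438), where 3.1% of all tested genes were higher and 1.49% lower. Rabggta did not pass against WT libraries 1 and 2 alone (0.32 ± 0.10, edgeR adjusted p = 0.0996).

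Of 25 tested genes of other fatty acid and glycerolipid synthesis, 10 rose and 3 fell in CM in KO cells and 9 rose and 2 fell in WT cells, with medians of 0.13 and 0.14. Over all tested genes 20.0% rose and 18.2% fell in KO cells, and 19.3% rose and 18.0% fell in WT cells. Elovl7 and Elovl5, which lengthen fatty acids, rose by 1.52 ± 0.13 and 0.68 ± 0.09 in KO cells and by 1.09 ± 0.11 and 0.60 ± 0.08 in WT cells. Mlxipl, which encodes the glucose-responsive factor ChREBP, rose to 1.68 ± 0.48 CPM in KO cells in CM, against 0.114 ± 0.105 CPM in control medium, and to 1.35 ± 0.14 CPM in WT cells in CM, against 0.107 ± 0.058 CPM in control medium. Lpin2, a relative of Lpin1, went the other way, by -1.34 ± 0.07 in KO cells and -1.27 ± 0.06 in WT cells. In control medium Agpat3 (0.38 ± 0.08) and Lpin2 (0.22 ± 0.06) were higher in KO cells, and in CM Hsd17b12 was (0.24 ± 0.06, edgeR adjusted p = 0.0406). These 3 calls stand beside 2.82% of all tested genes higher in control medium and 3.1% in CM. Against WT libraries 1 and 2 alone Agpat3 passed (0.31 ± 0.07, edgeR adjusted p = 0.0276), and Lpin2 (0.19 ± 0.07, 0.144) and Hsd17b12 (0.19 ± 0.07, 0.173) did not.

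Of 18 fatty acid oxidation genes, 1 rose and 4 fell in CM in KO cells and 3 rose and 3 fell in WT cells, with medians of -0.01 and -0.05. Over all tested genes 20.0% rose and 18.2% fell in KO cells, and 19.3% rose and 18.0% fell in WT cells, so the counts of this list are near the background except for the increases in KO cells. Cpt1a, the carnitine transferase that lets long-chain fatty acids into mitochondria, was at 121 ± 3.42 CPM in KO cells in CM against 222 ± 4.27 CPM in KO cells in control medium. In WT cells Cpt1a was at 124 ± 5.97 CPM in CM against 230 ± 6.93 CPM in control medium. It fell by 0.88 ± 0.05 and by 0.89 ± 0.05, and the carrier gene Slc25a20 fell by 0.30 ± 0.06 and by 0.28 ± 0.05.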

How the data were processed

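The deposited table holds raw counts per exon of transcript models for 14 libraries, and was made with HISAT2 on mm10, per the submitters' processing notes. The libraries came from a stranded mRNA kit, per the labels' protocols. The counting tool, its strand setting and the annotation are not given in the sources used here. Exons repeat across transcript models (427386 lines, 230445 distinct), so distinct exons were summed per gene symbol. Genes passing filterByExpr (minimum count 10, minimum total 15) were scaled by TMM and tested with edgeR 4.0.16 (R 4.3.3) in a model of 4 group means. Adjusted p-values are Benjamini-Hochberg over all 13311 tested genes, and a call is an adjusted p under 0.05. Results are log2 fold changes with SE. The SE of edgeR estimates was computed as the size of the log2 fold change over the square root of its F statistic. The test was checked on simulated data. Same-numbered WT libraries of the 2 media deviated together (r = 0.57, 0.55, 0.67 and 0.69) and KO ones did not (0.07, -0.06 and 0.08), but r between other WT numbers reached 0.66, so pairing and the split of WT libraries cannot be told apart. Alternatives included DESeq2 1.42.0, other scalings and filters, blocks, and leaving out libraries. The split of WT libraries 1 and 2 from 3 and 4 was read from the data. All 36 members are named, and of each other list up to 4 genes with the smallest p in a comparison. The members and the other gene lists were chosen with earlier results of these data known. Sequences and coordinates are from RefSeq GRCm38.p6 and GENCODE vM21.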

Additional observations from a re-analysis of the deposited data

Results flagged for a closer look

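Among 72 sets of 4 WT libraries tested for a single library far from the other 3 (36 genes in 2 media), 2 passed the critical value of Dixon's gap test, which chance passes in about 1 of 20 sets. Fdft1 was at 127 CPM in WT control library 4, where the other 3 libraries lay between 111 and 111 CPM, and the gap was 0.975 of the range. Hsd17b7 was at 7.42 CPM in WT CM library 1, where the other 3 lay between 8.82 and 8.92 CPM, and the gap was 0.931 of the range.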

How the results depend on the processing

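Of 5004 values of the 36 genes under 29 alternatives, 138 had the other sign, and 0 of those were called in either fit. The counts of genes higher in CM stayed within 1.5 times of 29 in KO cells and 31 in WT cells under every alternative run. The cause of the changes below was not tested. Genes lower in CM numbered 0 in KO cells and 1 in WT cells at an adjusted p of 0.01, where 12.3 and 12.2% of all tested genes were lower. They numbered 2 and 4 with library totals alone (27.2 and 26.3%). With only the compared groups fitted they numbered 2 and 1 (22.4 and 15.9%), and on the most-counted exon 0 and 1 (17.2 and 16.3%). In KO cells they numbered 2 with the replicate block within genotype, with the batch term for the WT libraries that stand apart, and when either pair of WT libraries was left out. In those fits 22.6 to 24.5% of all tested genes were lower. The replicate block gave 4 interaction calls, the batch term 4 and DESeq2 1. The block changed no call of CM in WT cells, and in CM in KO cells it added Scap and Tm7sf2. Across genotypes the numbers do not pair the libraries (r between -0.19 and 0.23), and that block took Dhcr7 out and added Scd2 among the 4 genes higher in KO cells in CM. Against WT libraries 3 and 4 alone, 16 genes were higher and 1 lower in KO cells in CM, and 11 higher and 8 lower in control medium. At an adjusted p of 0.01, 2 were higher in CM and 1 was lower in control medium, where 1.06% and 0.473% of all tested genes were. On the most-counted exon 0 were higher and 1 was lower in control medium, where 1.84% of all tested genes were higher and 1.24% lower. DESeq2 called 1 lower in CM, where it called 3.7% of all tested genes lower.

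Leaving out 1 library at a time gave 29 to 31 genes higher and 0 to 2 lower in CM in KO cells, and 30 to 31 higher and 1 to 2 lower in WT cells. KO cells had 2 to 5 higher and 0 to 0 lower in CM, 1 to 2 higher and 1 to 3 lower in control medium, and 0 interaction calls. Of the 36 KO differences, 11 in control medium and 7 in CM had the other sign against WT libraries 1 and 2 alone, and 7 and 6 had it with the batch term. The other values here are of genes described above by single values, and do not list every change of sign. For CM they were Insig2 in KO cells (-0.05) and WT cells (-0.05) and Ggps1 in KO cells (-0.03) with library totals, and Insig2 in WT cells on the most-counted exon (-0.09) and over the omissions (-0.03 to 0.12). Fads1 in KO cells ran from -0.05 to 0.04 over the omissions. Srebf2 in control medium was -0.01 for KO cells against WT libraries 1 and 2. For KO cells in CM, Sqle was 0.15 on the most-counted exon, 0.05 with the batch term, 0.11 against WT libraries 1 and 2 and -0.10 to 0.03 over the omissions. Cyp51 was -0.01 on the most-counted exon, -0.08 against WT libraries 3 and 4 and -0.02 to 0.11 over the omissions. Msmo1 was 0.02 with library totals, 0.02 with the block across genotypes, 0.09 with the batch term, 0.10 against WT libraries 1 and 2 and -0.04 to 0.05 over the omissions. Counting Fdft1 without its Ctsb-sharing exon, chosen after seeing the data, turned its KO difference in CM to 0.25, against -0.23 on the full count, neither called. At these depths the weakest genes, Scd1 and Elovl6, rest on the fewest counts per kilobase.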
